A study of Mus musculus with 9 samples.

Results

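The genes described here make, remove, carry or answer to retinoic acid. They are the retinaldehyde dehydrogenases *Aldh1a1*, *Aldh1a2* and *Aldh1a3*, the retinoic acid hydroxylases *Cyp26a1*, *Cyp26b1* and *Cyp26c1*, the retinoic acid receptor *Rarb*, and the cellular retinoic acid binding proteins *Crabp1* and *Crabp2*. Every probe carrying a member's symbol was taken, whatever its values. The list of members itself was drawn up with earlier results of these data known. Of the 9 listed genes, 8 had a probe under their symbol, giving 11 of the 25697 probes on the array and 8 of its 18120 symbols. No probe of the table carried the symbol *Cyp26c1*, which was not analysed here.

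RNA was taken from mouse embryos of the outbred CD-1 stock at E10.5, when the otic vesicle (OV) has closed and separated from the surface ectoderm. The 3 groups were pooled dissected otic vesicles, the periotic tissue around them, and the remaining embryo without the otic region, called embryo-minus-otic. Each group had 3 arrays, and each array was hybridized with RNA from a separate pool. No treatment or genetic change distinguished the groups. According to the study's methods, periotic tissue held mesenchyme and hindbrain, and the embryos came from separate litters.

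Retinoic acid is made from vitamin A. Retinol is oxidized in cells to retinaldehyde, which the Aldh1a enzymes convert irreversibly to retinoic acid, and the Cyp26 enzymes hydroxylate retinoic acid to forms that are cleared. Retinoic acid binds nuclear receptors of the RAR family, which pair with RXR receptors at response elements in target genes, and *Rarb* and *Cyp26a1* are themselves classical direct targets. In the embryo the somites and trunk mesoderm are a main source, made by *Aldh1a2*, and the signal is known to pattern the hindbrain and to influence the axes of the developing inner ear.

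Levels are given as log2 probe intensities after quantile normalization over the 9 arrays, and differences are in log2 units. Above background here means a deposited detection p-value under 0.01, and between 11283 and 12160 probes met this on each array. The lowest normalized log2 intensity of such a probe lay between 6.14 and 6.24, so values near or under it are close to the array's background. Where no array of the dimmer group was above background, the fold Δ is a lower bound, which sets the brighter group's mean against that lowest level on each array, or against the dim probe's value where that was higher. Where only some arrays of the dimmer group passed, their number is given and the bound is printed in the same way. Comparisons were made with limma over all probes, *q* is the Benjamini-Hochberg adjusted p, and a difference was called at *q* under 0.05. Means rest on 3 arrays each, which bounds their precision.

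Markers of the tissues named in the labels were read on the arrays. All 8 otic vesicle markers on the array, among them *Pax2*, *Pax8* and *Gata3*, were called higher in OV than in either other group. Of 10 hindbrain and neural tube markers, 6 were called higher in periotic tissue than in embryo-minus-otic, while *Pax6*, *Pax7* and *Sox1* were not above background on any array. All 8 mesenchyme markers were above background on every periotic array. None was called higher there than in embryo-minus-otic, 7 were called lower, and 2 were called higher than in OV. All 8 heart muscle markers were called higher in embryo-minus-otic than in periotic tissue. OV replicate 1 stood apart, in that 5 heart markers were above background and their summed linear intensity was 870.3, against 441.9 and 434.8 on the other OV arrays and at least 7785 in embryo-minus-otic. Values without this array are given where a call of a member changed. Red cell markers were lowest in OV, at 10200 to 23110, compared with 33110 to 42440 in periotic tissue and 46870 to 50500 in embryo-minus-otic. Markers of other lists were also present in OV. Above background on all OV arrays were 7 of 8 mesenchyme markers and 2 of the 10 hindbrain and neural tube markers. Their source was not tested. Each pool is a mixture of cells, so fewer cells of a type and less RNA per cell cannot be told apart.

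Across the 3 tissues the genes fell into distinct patterns. *Aldh1a1* was highest in OV, *Aldh1a2*, *Aldh1a3* and *Rarb* were highest in embryo-minus-otic, and *Cyp26b1*, *Crabp1* and *Crabp2* were highest in periotic tissue. In OV against periotic tissue, 1 of the 11 probes was called higher and 5 lower. Of all probes, 10.2% were called, 5.07% higher and 5.15% lower. In OV against embryo-minus-otic, 1 was called higher and 6 lower, against 11.4% of all probes, 5.89% higher and 5.51% lower. Between the non-otic groups, 3 were called higher in periotic tissue and 6 lower, against 5.81% of all probes, 2.86% higher and 2.95% lower. Called in all 3 comparisons were 4 of the 11, those of *Aldh1a1*, *Crabp1* and the brighter *Rarb* pair, and 1.44% of all probes. OV was called higher than both other groups for 1 member probe (3.51% of all probes) and lower than both for 3 (2.65%). The median size of the difference over the 11 probes was 0.79, 0.50 and 0.92 log2 units in these comparisons, compared with 0.094, 0.10 and 0.090 over all probes. Arrays of the compared groups did not overlap for 7, 9 and 9 of the 11 probes, and for 25.1%, 24.9% and 19.8% of all probes. For 9 of the 11 probes, some tissue had all its arrays above background, 3 probes had all 9 arrays so, and none was below background on every array. Over the whole array 11849 probes met the first condition, so the shares and medians over all probes include many dim probes. With those 11849 fitted alone, 2523, 2846 and 1445 were called in the 3 comparisons, in the order above. With the limit at 0.05, 10 rather than 9 member probes met the first condition. The comparisons share arrays, so each tissue's values enter more than 1 of them.

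**Figure D1:**
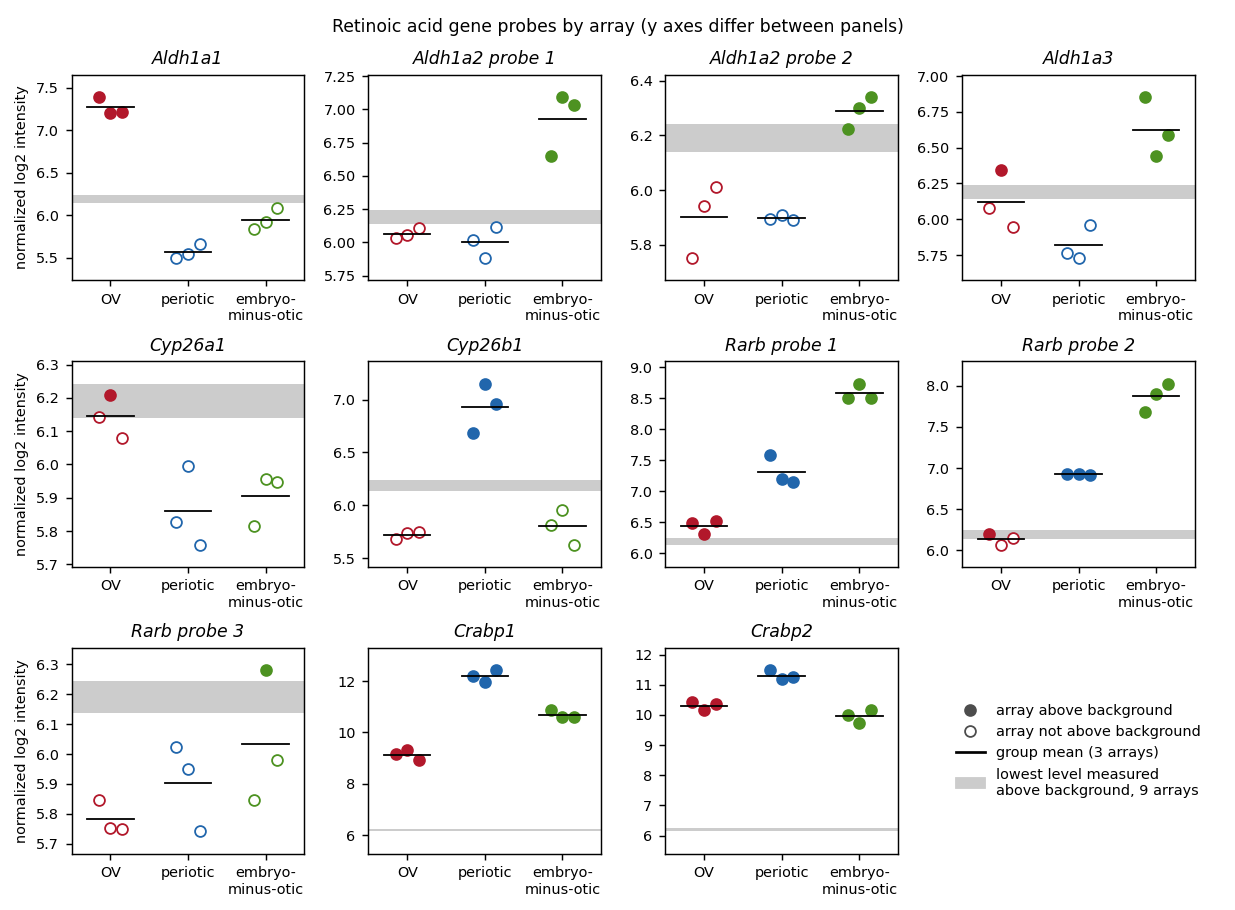
Normalized log2 intensity (y axis, scaled separately in each panel) of the 11 probes on the 3 arrays of each tissue (x axis), with filled points for arrays above background, open points for arrays that were not, black lines for group means, and a grey band from 6.14 to 6.24 for the lowest level measured above background on the 9 arrays. *Aldh1a1* stands above the band only in OV, *Cyp26b1* only in periotic tissue and probe 1 of *Aldh1a2* only in embryo-minus-otic, while *Crabp1* and *Crabp2* are far above it everywhere.

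The synthesizing enzymes divided between the otic vesicle and the rest of the embryo. *Aldh1a1* encodes a cytosolic retinaldehyde dehydrogenase known from the dorsal retina and other epithelia. Its log2 intensity on the OV arrays was 7.40, 7.20 and 7.22, against 5.50, 5.54 and 5.66 on the periotic arrays and 5.83, 5.91 and 6.08 in embryo-minus-otic. Every OV array was above background and no other array was, and the groups did not overlap. *Aldh1a1* in OV exceeded periotic tissue at least 2.13-fold (difference 1.70, standard error 0.095, *q* = 4.49e-09, limma). Against embryo-minus-otic it was at least 2.08-fold higher (difference 1.33, standard error 0.095, *q* = 8.63e-08, limma). The fitted fold Δ of 3.26 and 2.51 rose to 6.15 and 4.80 with limma's neqc, which uses the detection p-values to estimate and subtract a background. Between the non-otic groups a difference of -0.37 passed the test (*q* = 0.0299, limma), although neither group was above background on any array, and no fold Δ is given. That call was lost without embryo-minus-otic replicate 2 or 3 (*q* = 0.0558 and *q* = 0.123, limma) and without periotic replicate 1 or 2 (*q* = 0.129 and *q* = 0.107). It was also lost with median normalization (*q* = 0.0649), no normalization (*q* = 0.178) and neqc (*q* = 0.153, limma). Without normalization the difference itself was larger, at -0.52.

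A further gene of this subfamily, *Aldh1a7*, is a close copy of *Aldh1a1* in the mouse, and the probe sequences were not used here, so signal shared between them cannot be told apart. *Aldh1a7* was looked up after the values of *Aldh1a1* were seen. Its OV arrays read 7.06, 6.52 and 7.32, and the periotic arrays 5.94, 5.83 and 6.34. In embryo-minus-otic the values were 6.45, 6.02 and 6.42. OV exceeded periotic tissue 1.91-fold (*q* = 0.00241, limma) and embryo-minus-otic 1.59-fold (*q* = 0.0238). Unlike *Aldh1a1* it was above background on 2 embryo-minus-otic arrays and on 1 periotic array.

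Pan-epithelial markers moved in the same direction as *Aldh1a1*: all 7 on the array were called higher in OV than in each other group. Summed over the list, linear intensity per OV array was 10470 to 10930, while periotic arrays reached 805.9 to 1049 and embryo-minus-otic arrays 1451 to 2000, and 4 of the 7 were above background on all arrays of each non-otic group. Their part in the *Aldh1a1* difference was not tested.

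*Aldh1a2*, the main retinoic acid source of the early embryo, had the opposite distribution. Its brighter probe read 6.65, 7.09 and 7.04 in embryo-minus-otic, 6.03, 6.06 and 6.11 in OV, and 6.01, 5.88 and 6.11 in periotic tissue. The embryo-minus-otic arrays were all above background, and none of the OV or periotic arrays was. It was at least 1.65-fold higher in embryo-minus-otic than in OV (OV minus embryo-minus-otic -0.86, standard error 0.11, *q* = 5.8e-05, limma). Against periotic tissue it was at least 1.68-fold higher (periotic minus embryo-minus-otic -0.92, standard error 0.11, *q* = 6.39e-05, limma). With neqc the fitted fold Δ of 1.82 and 1.89 became 2.93 and 3.16. The dimmer *Aldh1a2* probe went the same way, at least 1.06-fold against OV (*q* = 0.00876) and at least 1.08-fold against periotic tissue (*q* = 0.015), with values from 6.22 to 6.34 in embryo-minus-otic. The first of these calls was lost without OV replicate 1 (*q* = 0.0558, limma). The second was lost when embryo-minus-otic replicate 3 (*q* = 0.0572), periotic replicate 1 (*q* = 0.055) or periotic replicate 2 (*q* = 0.0527) was left out. Both were lost without normalization between arrays (*q* = 0.113 and *q* = 0.165, limma). There the differences were larger, at -0.51 and -0.52 against -0.38 and -0.39 in the main fit. The standard error of the first was 0.19 there, against 0.089 in the main fit.

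No OV or periotic array was above background for either *Aldh1a2* probe, and a difference between them was not detectable. The interval of that difference reached from -0.18 to 0.30 for the brighter probe (*q* = 0.867, limma).

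*Aldh1a3*, known from the ventral retina and the frontonasal region, was also highest in embryo-minus-otic, at 6.86, 6.44 and 6.59. In periotic tissue it read 5.76, 5.73 and 5.96, with no array above background, and was at least 1.36-fold lower (difference -0.81, standard error 0.12, *q* = 5.52e-04, limma). In OV the values were 6.08, 6.35 and 5.94, and only the second of these arrays was above background. The OV mean lay at least 1.29-fold under that of embryo-minus-otic (fitted 1.42, difference -0.50, standard error 0.12, *q* = 0.013, limma), with no overlap between the arrays. The margin was small, and the call was lost without OV replicate 1 (fitted 1.39-fold, *q* = 0.0509), without OV replicate 3 (1.34-fold, *q* = 0.0738) and without embryo-minus-otic replicate 1 (1.32-fold, *q* = 0.0589). OV and periotic tissue were not called apart (difference 0.30, interval 0.042 to 0.57, *q* = 0.169).

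Several marker groups, those of the trunk, limbs and heart among them, were like *Aldh1a2* and *Aldh1a3* highest in embryo-minus-otic. Of 9 somite and trunk mesoderm markers, 4 were called higher in embryo-minus-otic than in OV and 4 higher than in periotic tissue, and *Pax1*, *Pax9*, *Myf5* and *Tbx18* were not above background on any array. Their summed intensity was 1866 to 2040 in embryo-minus-otic, 527 to 611.2 in OV and 552.7 to 579.5 in periotic tissue. Of 10 limb and posterior markers, 5 were called higher in embryo-minus-otic than in each other group, with sums of 887.7 to 964.6, 591.6 to 658.5 in OV and 610.6 to 633.7 in periotic tissue. Eye markers were nearly silent, with 7 of 9, *Rax*, *Six6* and *Mitf* among them, above background on no array. Their sum was 567.5 to 618.3 in embryo-minus-otic, 521 to 528.5 in OV and 499.6 to 516.9 in periotic tissue. Other lists went the same way. Called higher in embryo-minus-otic than in OV were 8 of 8 mesenchyme, 5 of 8 liver and endoderm and 6 of 7 red cell markers. Against periotic tissue these counts were 7, 3 and 1. The part of these cell types in the *Aldh1a2* and *Aldh1a3* differences was not tested.

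*Rarb*, a receptor and a direct target of retinoic acid, was lowest in OV, intermediate in periotic tissue and highest in embryo-minus-otic. The brightest of its 3 probes read 6.49, 6.31 and 6.52 on the OV arrays. Periotic arrays read 7.59, 7.20 and 7.15, and embryo-minus-otic arrays 8.50, 8.74 and 8.51. All 9 arrays were above background and the 3 tissues did not overlap. It was 4.43-fold lower in OV than in embryo-minus-otic (difference -2.15, standard error 0.12, *q* = 4.49e-09, limma) and 1.84-fold lower in OV than in periotic tissue (difference -0.88, standard error 0.12, *q* = 7.64e-05). Periotic tissue in turn lay 2.41-fold under embryo-minus-otic (difference -1.27, standard error 0.12, *q* = 4.16e-06, limma). The differences between neighbours in this order exceeded the largest SD within a group, 0.24 in periotic tissue.

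A second *Rarb* probe, listed under another entry of the array's design and placed on chromosome 14, gave the same order. Its OV values were 6.19, 6.07 and 6.15, of which only the first was above background. The periotic arrays read 6.93, 6.93 and 6.92, and the embryo-minus-otic arrays 7.69, 7.91 and 8.03. OV was at least 3.18-fold under embryo-minus-otic (fitted 3.33, *q* = 4.36e-09, limma) and at least 1.65-fold under periotic tissue (fitted 1.73, *q* = 2.54e-05), and periotic tissue was 1.93-fold under embryo-minus-otic (*q* = 9.69e-06). The third *Rarb* probe shares the design entry of the first but was above background on only 1 array, an embryo-minus-otic array, and none of its differences was called. Averaging the 3 probes lowered the fold Δ of OV against embryo-minus-otic to 2.60, and neqc raised it to 7.37 for the first probe and to 6.30 for the second.

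The promoters of *Rarb* and *Cyp26a1* are shown because they hold letters of the element that the RAR and RXR pair is known to bind. RefSeq promoters (build GRCm38.p6, from 250 bases before to 50 after each transcript start) were searched on both strands for direct repeats of a hexamer, spaced by 5 bases (DR5) or by 2 bases (DR2). The hexamer was AGGTCA or its variant AGTTCA, or else GGGTCA or the related form GGTTCA, and the copies of a repeat could differ. Entries were found for 7 of the 9 genes, with *Aldh1a3* and *Crabp2* missing. A DR5 was found in *Rarb* and *Cyp26a1* and no DR2 in any of the 7. Over all 32851 promoters, 0.0974% held a DR5 and 0.268% a DR2. Counted by gene, these shares were 0.115% and 0.311%. Entries were also searched for 26 supply and storage genes, 15 receptors and cofactors and 10 response genes of the lists described below. None of these held either repeat. The 250 bases before the start are given 5′ to 3′ along the gene's strand, with the DR5 in capitals.
*Rarb*, chr14:16575477-16575726, minus strand: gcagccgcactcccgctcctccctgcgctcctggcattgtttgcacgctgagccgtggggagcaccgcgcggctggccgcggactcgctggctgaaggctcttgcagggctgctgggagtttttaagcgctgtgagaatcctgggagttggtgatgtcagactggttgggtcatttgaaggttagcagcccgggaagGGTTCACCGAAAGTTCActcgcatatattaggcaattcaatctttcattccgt
*Cyp26a1*, chr19:37697558-37697807, plus strand: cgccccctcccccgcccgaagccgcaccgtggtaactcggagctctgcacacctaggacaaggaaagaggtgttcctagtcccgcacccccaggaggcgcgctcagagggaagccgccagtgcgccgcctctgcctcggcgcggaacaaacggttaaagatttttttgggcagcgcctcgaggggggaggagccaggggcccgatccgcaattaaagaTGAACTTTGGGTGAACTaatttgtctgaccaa
In *Rarb* the element lies from -53 to -37 relative to the start and reads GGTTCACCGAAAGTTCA on the gene's strand. In *Cyp26a1* it lies from -32 to -16 and is on the other strand, where it reads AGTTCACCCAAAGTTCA. Both elements hold the hexamer AGTTCA after the spacer. A match describes letters in a window and is not evidence of binding in these tissues. In the other genes, its absence says only that these letters were not in the window.

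*Cyp26a1*, the hydroxylase whose gene retinoic acid itself induces, was at the edge of detection with its probe. It read 6.14, 6.21 and 6.08 on the OV arrays. Periotic arrays read 5.83, 5.997 and 5.76, and embryo-minus-otic arrays 5.82, 5.96 and 5.95. The OV arrays were each above all others, yet only 1 was above background at a detection p-value under 0.01, and 3 were at 0.05. None of the other arrays passed either limit. The difference was 0.28 against periotic tissue (standard error 0.091, *q* = 0.0656, limma) and 0.24 against embryo-minus-otic (standard error 0.091, *q* = 0.123), so *Cyp26a1* was not called. With neqc both differences passed (*q* = 0.0213 and *q* = 0.0331, limma), and the first also did without periotic replicate 2 (*q* = 0.0397), with array weights (*q* = 0.0382) and with averaged probes (*q* = 0.0427).

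*Cyp26b1*, a hydroxylase known from hindbrain rhombomeres, limb buds and later the inner ear, was measured only in periotic tissue. Its periotic arrays read 6.68, 7.15 and 6.96 and were all above background. The OV arrays read 5.68, 5.74 and 5.74, those of embryo-minus-otic 5.81, 5.96 and 5.63, and none was above background even at a detection p-value under 0.05. *Cyp26b1* was at least 1.66-fold higher in periotic tissue than in OV (OV minus periotic -1.21, standard error 0.12, *q* = 2.2e-06, limma) and at least 1.64-fold higher than in embryo-minus-otic (periotic minus embryo-minus-otic 1.13, standard error 0.12, *q* = 1.21e-05). Fitted fold Δ values of 2.31 and 2.19 became 4.14 and 3.86 with neqc. OV and embryo-minus-otic, both below background, were not called apart (*q* = 0.794).

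The binding proteins were above background on all 9 arrays. *Crabp1*, which holds retinoic acid in the cytoplasm and is a known marker of hindbrain and migrating neural crest, had the largest difference between tissues of the 11 probes. Its log2 intensity was 12.21, 11.96 and 12.41 in periotic tissue, 10.85, 10.61 and 10.61 in embryo-minus-otic and 9.17, 9.32 and 8.91 in OV. OV was 8.33-fold below periotic tissue (difference -3.06, standard error 0.13, *q* = 1.64e-10, limma), a size of difference that ranked 28 among all probes. It was 2.94-fold below embryo-minus-otic (difference -1.56, standard error 0.13, *q* = 3.87e-07, limma). Periotic tissue exceeded embryo-minus-otic 2.83-fold (difference 1.50, standard error 0.13, *q* = 1.48e-06, limma). Every array was above background and the tissues did not overlap.

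*Crabp2*, which delivers retinoic acid to nuclear receptors, was also highest in periotic tissue, with 11.48, 11.18 and 11.26. It read 10.42, 10.15 and 10.36 in OV and 10.02, 9.74 and 10.16 in embryo-minus-otic. Periotic tissue exceeded OV 1.99-fold (OV minus periotic -0.99, standard error 0.12, *q* = 2.14e-05, limma) and embryo-minus-otic 2.52-fold (difference 1.33, standard error 0.12, *q* = 2.4e-06). The lower places were not settled. OV and embryo-minus-otic arrays overlapped, and OV minus embryo-minus-otic was 0.34 (interval 0.087 to 0.59, *q* = 0.085, limma), which was called without embryo-minus-otic replicate 3 (*q* = 0.039) and with the replicate number as a block (*q* = 0.0276). So the binding proteins shared periotic tissue as their highest site, but OV lay well under embryo-minus-otic for *Crabp1* and not for *Crabp2*.

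Summed over the hindbrain and neural tube markers, intensity was highest in periotic tissue, where *Crabp1*, *Crabp2* and *Cyp26b1* were also highest. The sums were 5331 to 6187 in periotic tissue, 1894 to 2234 in embryo-minus-otic and 786 to 908.3 in OV. Of the 10 markers, 7 were called lower in OV than in periotic tissue. In OV against embryo-minus-otic, 5 of them and *Crabp1* were called lower, while *Crabp2* and *Cyp26b1* were not called. Mesenchyme markers were not highest in periotic tissue. Of 8, none was called higher in periotic tissue than in embryo-minus-otic and 7 were called lower (limma), with sums of 1723 to 1991 in periotic tissue, 3309 to 4054 in embryo-minus-otic and 1404 to 1617 in OV. Sums for mesenchyme followed the order of *Rarb*, as did those of the red cell markers and of the liver and endoderm markers. The sums of the retinoic acid response genes, described below, also had this order. Only 2 of the 8 mesenchyme markers were called lower in OV than in periotic tissue. The part of any of these cell types in the members' differences was not tested.

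**Figure D2:**
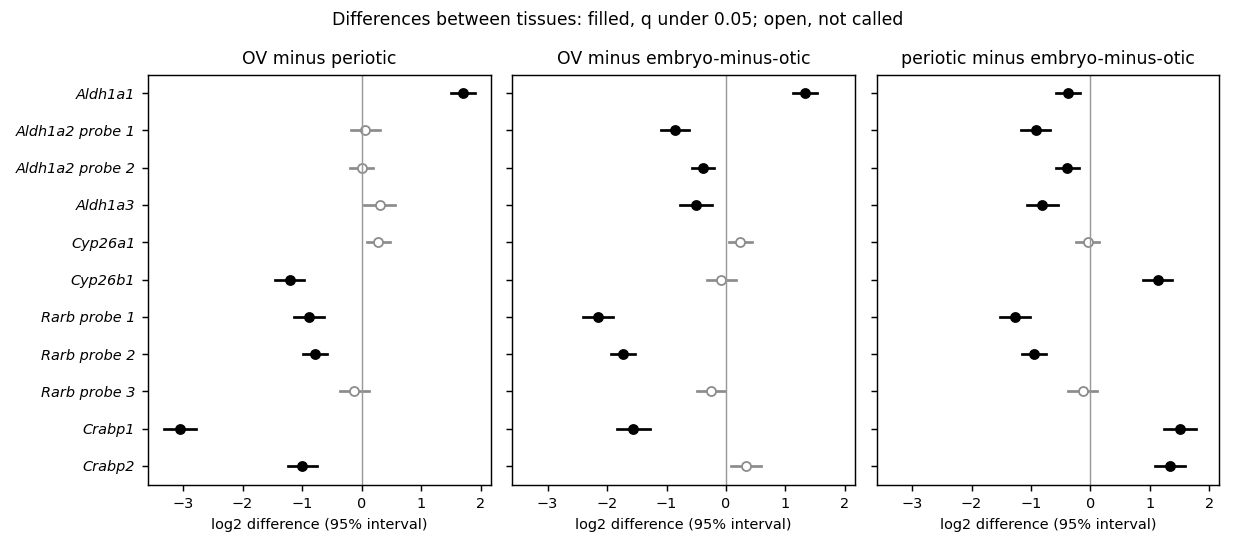
Fitted log2 difference (x axis) with its 95% interval for each of the 11 probes (y axis) in the 3 comparisons, with filled points for *q* under 0.05 in limma and open points otherwise. *Aldh1a1* is the single probe called higher in OV, with differences of 1.70 and 1.33, *Rarb* probes 1 and 2 are lower in OV in both comparisons and lower in periotic tissue than in embryo-minus-otic, and *Crabp1* has the widest difference at -3.06; the points for genes not above background in the dimmer group are fitted values, not bounds.

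For each called gene the probes nearest in pattern on the array are listed. Some probe is always nearest, and the distances were not set against a reference. Likeness was the root mean square difference between centred log2 values over the 9 arrays, among 11840 probes of other genes that passed background throughout some tissue, and is given as a description. Nearest to *Aldh1a1* were *Slc6a17* (0.10 log2 units), *Cdh3* (0.13), the gene of P-cadherin, and *Tnfrsf12a* (0.13). *Aldh1a2* was followed most closely by *Amid* (0.11), *Tcf21* (0.11), a transcription factor of visceral mesoderm, and *Vgll2* (0.13). *Rarb* had *Tcfap2c* (0.19), *Spon2* (0.22) and *Pmp22* (0.26). For *Crabp1* they were *Wnt3a* (0.21), a Wnt ligand of the dorsal neural tube and tail bud, *Ednrb* (0.22), the endothelin receptor of neural crest, and *Ly6h* (0.23). *Crabp2* was nearest to *Ankrd6*, *Fmn2* and *Dtx4* (0.19 to 0.20), *Cyp26b1* to *BC065085*, *Tmem35* and *Dpysl4* (0.11 to 0.15), and *Aldh1a3* to *9830160G03Rik*, *Igf2r* and *Cpt1b* (0.12 to 0.15).

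Other genes of the pathway were read from 3 lists: 31 genes of retinoid supply and storage, 19 receptors and cofactors, of which 18 were on the array, and 17 retinoic acid response genes, of which 16 were. Each gene is represented by its brightest probe. Over all probes, 10.2% were called in OV against periotic tissue, 11.4% in OV against embryo-minus-otic and 5.81% between the non-otic groups.

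Of the 31 supply and storage genes, 10 passed background on every array of some tissue, and the median difference was -0.021 in OV against embryo-minus-otic. In OV against periotic tissue 3 were called higher and 2 lower, a count of 5 that became 3 without OV replicate 1 and without periotic replicate 2. *Stra6*, the membrane receptor through which cells take up retinol, passed background on 1 of 3 periotic arrays and on all others, and OV exceeded periotic tissue at least 1.80-fold (*q* = 3.11e-06, limma). Against embryo-minus-otic the *Stra6* difference was -0.24 (interval -0.45 to -0.031, *q* = 0.153, limma), and periotic tissue was at least 2.13-fold under embryo-minus-otic (*q* = 7.27e-07). *Rlbp1* passed the test in OV against periotic tissue (*q* = 0.0349, limma) with no array above background in either tissue.

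The genes of this list that were lower in OV included *Cyp1b1*, a cytochrome P450 able to oxidize retinol and retinaldehyde. It was at least 2.15-fold lower in OV than in periotic tissue (*q* = 3.29e-06, limma) and at least 2.15-fold lower than in embryo-minus-otic (*q* = 3.49e-06). *Rdh5*, a retinol dehydrogenase, was 1.43-fold lower in OV than in periotic tissue (*q* = 0.0104, limma), and periotic tissue exceeded embryo-minus-otic, with 2 of 3 arrays above background, at least 1.61-fold (*q* = 0.0019). Against embryo-minus-otic, 2 supply genes were called higher in OV and 5 lower, and these 7 became 4 without OV replicate 1 or OV replicate 3. *Dhrs4* was at least 1.31-fold higher, with 1 of 3 embryo-minus-otic arrays above background (*q* = 0.00595, limma), and *Ttr*, the plasma carrier of retinol binding protein and a marker of liver and yolk sac, was at least 2.71-fold lower (1 of 3 OV arrays above background, the others raised to the lowest such level, *q* = 1.89e-05). *Rdh14*, a retinol dehydrogenase, was 1.25-fold lower (*q* = 0.0212, limma). *Rbp4*, the plasma retinol carrier, above background on 2 of 3 embryo-minus-otic arrays, was at least 1.10-fold lower (*q* = 0.0166) and *Adh1*, an alcohol dehydrogenase, was at least 1.04-fold lower for its dimmer probe, above background on 1 of 3 embryo-minus-otic arrays (*q* = 0.00225, limma). *Rdh10*, the retinol dehydrogenase required in the embryo, had OV, periotic and embryo-minus-otic means of 6.05 ± 0.24, 5.88 ± 0.15 and 5.90 ± 0.11, with 1 OV array above background. *Rdh10* falls outside the naming rule and was chosen after its values were seen. Between the non-otic groups 1 gene was called higher in periotic tissue and 4 lower.

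Among the 18 receptors and cofactors, 3 were called higher and 2 lower in OV against periotic tissue, and 3 higher and 1 lower against embryo-minus-otic. No gene was called between the non-otic groups (limma), where 5.81% of all probes were called. In that comparison 5 genes had an unadjusted p under 0.05 and 4 alternatives called 1 gene each. *Rxrg*, a retinoid X receptor, passed background on the 3 OV arrays alone, at 6.31 ± 0.028 (SD, n = 3 arrays), 5.96 ± 0.079 and 5.79 ± 0.11 in OV, periotic tissue and embryo-minus-otic. OV exceeded periotic tissue at least 1.09-fold (*q* = 0.0161, limma) and embryo-minus-otic at least 1.07-fold (*q* = 7.17e-04). Of the RXR receptors, *Rxrb* alone was above background on every array. Its means were 9.71 ± 0.11, 9.80 ± 0.14 and 9.91 ± 0.14 in the same order. None of the *Rxrb* differences was called (largest -0.21, OV minus embryo-minus-otic, interval -0.43 to 0.014, *q* = 0.275, limma). *Rara* and *Rxra* lay near the background level and were not called in any comparison. *Rarg* had means of 6.47, 6.26 and 6.53 in OV, periotic tissue and embryo-minus-otic and was not called by its brightest probe, while its second probe was at least 1.16-fold lower in periotic tissue, with 1 of 3 arrays above background, than in embryo-minus-otic (*q* = 0.0289, limma).

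Of the cofactors, *Nr6a1*, an orphan receptor that represses genes with direct repeats, was raised in OV 1.55-fold over periotic tissue (*q* = 0.0367, limma) and 1.93-fold over embryo-minus-otic (*q* = 0.00207). The acetyltransferase gene *Ep300* was 1.24-fold (*q* = 0.035) and 1.40-fold (*q* = 0.00118, limma) higher. *Nr2f2*, an orphan receptor known to bind retinoic acid response elements, was 1.74-fold lower in OV than in periotic tissue (*q* = 3.08e-05, limma) and 1.47-fold lower than in embryo-minus-otic (*q* = 0.00101). Its relative *Nr2f1* was 1.50-fold lower than in periotic tissue (*q* = 0.00788). The calls of this list in OV against periotic tissue fell from 5 to 2 when OV replicate 1, OV replicate 3 or periotic replicate 2 was left out, and to 3 without periotic replicate 1. No normalization between arrays left 1 of its 4 calls against embryo-minus-otic.

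The response genes differed most. Of 16, 10 were called lower in OV than in embryo-minus-otic and 1 higher, with a median difference of -1.29 against 0.0043 over all probes, and 8 were called lower and 2 higher in OV than in periotic tissue, with a median of -0.35. The list holds Hox genes of the hindbrain and trunk, which have known anterior limits of expression, and its summed intensity was 2077 to 2245 on OV arrays, 3954 to 4117 on periotic arrays and 5025 to 5783 on those of embryo-minus-otic. *Hoxd4*, *Hoxb4* and *Hoxb5* were each above background on 1 of 3 OV arrays, OV replicate 1, which also held heart transcripts. Their values there were 6.66, 6.38 and 6.37, against 5.62 to 5.90 on the other OV arrays, and the part of other tissue in them was not tested. With OV values raised to the lowest level above background where they were under it, *Hoxd4* was at least 11.7-fold (*q* = 6.76e-09), *Hoxb4* at least 8.49-fold (*q* = 2.73e-09) and *Hoxb5* at least 7.70-fold (*q* = 5.59e-10, limma) lower in OV than in embryo-minus-otic. *Hoxb1*, a direct retinoic acid target of the hindbrain, was at least 5.73-fold lower in OV than in periotic tissue (*q* = 1.88e-09, limma), and periotic tissue exceeded embryo-minus-otic 2.96-fold (*q* = 9.52e-06). *Meis1*, a homeobox partner of Hox proteins, was 4.64-fold lower than in periotic tissue (*q* = 1.84e-09, limma) and 3.76-fold lower than in embryo-minus-otic (*q* = 1.2e-08). *Neurog2*, a proneural factor, was at least 3.54-fold and at least 2.94-fold lower in OV (*q* = 6.05e-09 and *q* = 3.05e-08).

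*Tbx1*, a T-box factor of the otic vesicle and pharyngeal region that retinoic acid is known to repress, was the response gene called higher in OV in both comparisons. Its mean was 9.65 ± 0.13 (SD, n = 3 arrays) for OV, 7.46 ± 0.091 for periotic tissue and 7.13 ± 0.13 for embryo-minus-otic. *Tbx1* was 4.55-fold higher than in periotic tissue (difference 2.19, standard error 0.098, *q* = 3.55e-10, limma) and 5.73-fold higher than in embryo-minus-otic (difference 2.52, standard error 0.098, *q* = 2.13e-10). *Fgf8*, another gene known to be repressed, exceeded its periotic level at least 1.28-fold in OV (*q* = 0.0224, limma) but 3.22-fold lower than in embryo-minus-otic (*q* = 3.29e-07), and periotic tissue was at least 4.10-fold under embryo-minus-otic (*q* = 3.7e-08). Between the non-otic groups 6 response genes were called lower in periotic tissue, among them *Hoxd4* at 4.11-fold (*q* = 1.83e-05, limma), *Hoxb4* at 2.47-fold (*q* = 1.7e-04) and *Hoxb5* at no less than 8.14-fold (*q* = 1.1e-09). *Hoxb1* alone was called higher there.

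**Figure D3:**
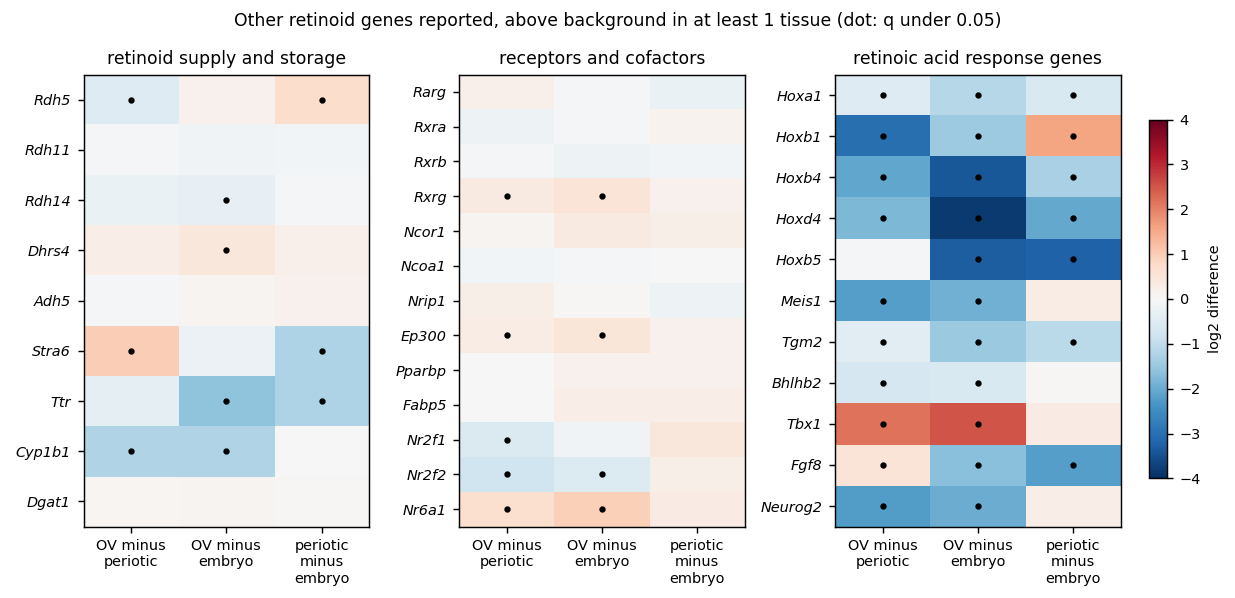
Fitted log2 difference (colour, from -4 to 4) in the 3 comparisons (columns) for the other retinoid genes that passed background throughout some tissue, apart from 1 not reported here (rows, brightest probe), with black dots at *q* under 0.05 in limma; embryo stands for embryo-minus-otic. *Tbx1* is higher in OV in both comparisons, and the Hox genes and *Meis1* are mostly lower in OV. No receptor or cofactor is called between periotic tissue and embryo-minus-otic, where 5.81% of all probes were called.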

How the data were processed

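The authors hybridized biotin-labelled cRNA of 9 RNA pools to MouseRef-8 v2.0 beadchips and summarized each probe in GenomeStudio. The deposited table gives, per array, an average signal as an intensity that was not normalized between arrays, and a detection p-value that ranks it among negative control beads. Whether a background was subtracted, and the slide of each array, are not given in the sources used here. Arrays were grouped by the tissue in their labels.

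Intensities under 1 were set to 1, log2 transformed and quantile normalized, and a single model of the 3 groups was fitted to all 25697 probes (limma 3.58.1, R 4.3.3). Every probe of a member is reported, and a gene's first probe is the brightest over the 9 arrays. From each pathway list, up to 6 called probes with the largest difference per comparison and the RAR and RXR receptors are named, though not all of them are described. The 3 nearest probes are named for each member called in both OV comparisons or between the non-otic groups. The members and lists were chosen with earlier results of these data known. Steps were tested on simulated data. Alternatives were median and no normalization, neqc with an offset of 16, a filter on dim probes, only the groups compared, a replicate block, an intensity trend, array weights, each array left out, averaged probes, and a detection limit of 0.05. No arrays were identical. The p-values measure the spread between pools. 1 gene of the supply list is counted but not reported here by name.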

Additional observations from a re-analysis of the deposited data

How the results depend on the processing

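Over 18 alternatives at most, none of the 22 called differences of the member probes changed direction, and 18 kept their call in every alternative that tested them. The 4 that lost it in at least 1 were those of the dimmer *Aldh1a2* probe against embryo-minus-otic, in both comparisons, *Aldh1a3* in OV against embryo-minus-otic, and *Aldh1a1* between the non-otic groups. With each array left out in turn, between 6 and 7 of the 11 probes were called in OV against periotic tissue, between 5 and 8 in OV against embryo-minus-otic and between 7 and 9 between the non-otic groups. The fewest against embryo-minus-otic came without OV replicate 1. Differences near 0 changed sign: the dimmer *Aldh1a2* probe in OV against periotic tissue gave -0.012 with array weights and from -0.052 to 0.077 with an array left out, *Cyp26b1* in OV against embryo-minus-otic gave from -0.16 to 0.00037, and *Cyp26a1* between the non-otic groups from -0.11 to 0.0050. With the replicate number as a block, 6, 8 and 9 of the 11 probes were called, the added call being *Crabp2* in OV against embryo-minus-otic (*q* = 0.0276, limma). Of the 9 pairs of arrays with the same number, 5 had correlated deviations above 0.1, from 0.0080 to 0.18 over all pairs, and 7 of 9 arrays correlated best with their own number, a hint of pairing from the data. The numbers were not taken as pairs because not every pair passed 0.1 and no source used here ties them to litters. The methods divide the litters among the tissues, so a pairing by litter is possible and is left out of the main fit. Over all probes the calls moved more than 1.5-fold without normalization between arrays, from 2625 to 1381, from 2930 to 1383 and from 1493 to 696, and with median normalization in OV against periotic tissue, to 1684. Median normalization also raised the share of calls that were higher, from 51.6% to 68.7% in OV against embryo-minus-otic and from 49.3% to 72.0% in periotic tissue against embryo-minus-otic. The cause was not tested. Closeness to background limits *Cyp26a1*, *Aldh1a3*, the dimmer *Aldh1a2* probe and the third *Rarb* probe.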
